A study of Rattus norvegicus with 23 samples.

Results

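The liver transcripts of rats dosed with diclofenac (DCLF) were compared with those of rats dosed with its vehicle, water. The samples were chosen by their titles, which name the compound or vehicle and its dose, and they made up 5 of the 23 arrays of the series, with 3 DCLF rats and both water rats. DCLF rats received 10 mg/kg of the drug in water, and water rats received 10 ml/kg of water alone. All were male Sprague Dawley rats, typically 6 to 8 weeks old, which were dosed by gavage on 5 days and sampled 24 hours after the final dose following an overnight fast. RNA came from the left lateral lobe, with 1 array per rat. The other 18 arrays held 3 further hepatotoxicants and 3 further vehicles, and of these the acetaminophen (APAP, 1000 mg/kg) rats and the corn oil (2 ml/kg) rats came from the same in-life study as the DCLF and water rats. The 3 corn oil rats are given below as a further vehicle group beside the water rats, although corn oil is a fat and was not the vehicle of DCLF. Comparisons with water and with corn oil share the same DCLF rats.

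Diclofenac is a nonsteroidal anti-inflammatory drug that blocks both cyclooxygenases, the enzymes (Ptgs1 and Ptgs2) that turn arachidonic acid into prostaglandins and thromboxane. In the liver it is oxidised by cytochromes P450 of the 2C and 3A families and joined to glucuronic acid by UDP-glucuronosyltransferases of the 2B family, and the resulting acyl glucuronide is pumped into bile by Abcc2. Reactive forms made on these routes can bind to liver proteins, and the drug is known as a rare cause of liver injury in patients.

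The values were RMA values, that is background-corrected, quantile-normalised probe brightness summarised per probe set on a log2 scale, so a difference of 1 is a 2-fold difference. They ran from 4.66 to 15.98 in the 5 samples, and the sample medians from 8.97 to 9.02. The liver genes of albumin (Alb) and transthyretin (Ttr) lay near the top of this range in DCLF rats (15.86 to 15.98 and 15.72 to 15.77) as in water rats (15.95 in both, and 15.76 to 15.77), and both were named as a check of the tissue. The root mean square difference between any DCLF rat and any water rat was 0.215 to 0.267 (median 0.233). The difference was 0.200 to 0.220 between DCLF rats, 0.209 between both water rats and 0.197 to 0.242 between DCLF rats and corn oil rats, so the ranges within and between groups overlapped.

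No single transcript passed the test in DCLF livers, and the gene with the lowest log2 change was Prlr, the prolactin receptor. Limma called 0 of 31042 probe sets (0%) at an adjusted p under 0.05 and a fold change over 1.5, the smallest adjusted p was 0.0657 (shared by 3 probe sets, 2 of them without a gene name here and 1 of Prlr), and the methods' t-test also called 0. Without adjustment, 3885 probe sets (12.5%) had p under 0.05, of which 1201 were higher (3.87%) and 2684 lower (8.65%) in DCLF livers. A looser rule asked for an unadjusted p under 0.01 together with a difference of more than 1.5-fold. It kept 140 probe sets (0.451%), 18 higher (0.058%) and 122 lower (0.393%). With each gene represented by its brightest probe set, it kept 36 of 14217 genes (0.253%), 8 higher (0.0563%) and 28 lower (0.197%). These 36 genes are described below, and none of them passed after adjustment. The median log2 change over genes was -0.033, and 41.1% of genes (44.6% of probe sets) had a change above 0. Among genes with an unadjusted p under 0.05, 463 were higher (3.26%) and 1217 lower (8.56%), but after a further quantile normalisation of the 5 samples these counts were 679 higher and 584 lower. Regardless of p, 0.139% of probe sets were more than 1.5-fold higher and 0.567% more than 1.5-fold lower in DCLF livers, and of genes 0.155% were higher and 0.359% lower by that much.

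**Figure D1:**
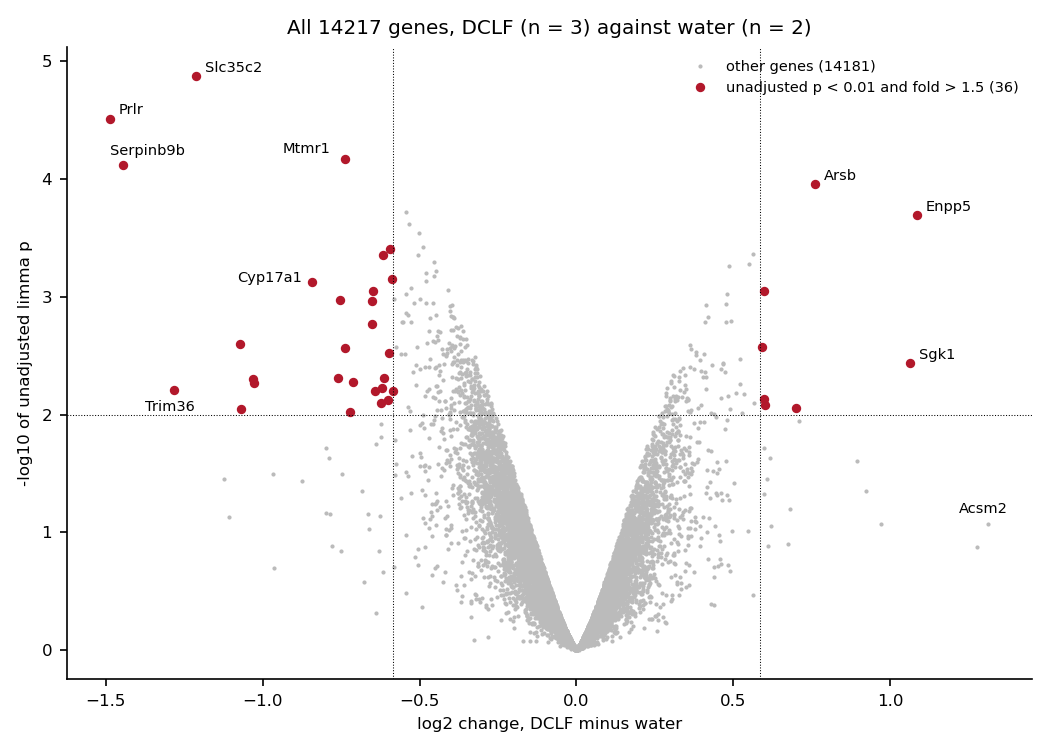
Log2 change (DCLF minus water, horizontal) against -log10 of the unadjusted limma p (vertical) for all 14217 genes, 1 point per gene. The 36 genes past the dotted lines (1.5-fold, and 2 on the vertical axis) are red, 28 of them to the left and 8 to the right, with Prlr, Serpinb9b and Slc35c2 at the upper left.

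The 95% interval of the log2 change lay within 1.5-fold either way for 90.9% of probe sets (91.8% of genes) and within 2-fold for 98.9%, with a median half-width of 0.226 (1.17-fold). The group means of 14 genes (0.0985%) and 40 probe sets (0.129%) differed by more than 2-fold.

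The lowest log2 change of any gene was that of Prlr, the receptor for prolactin, which in rats is far more abundant in female than in male liver. Its brightest probe set read 10.70, 10.15 and 10.23 in DCLF rats, against 11.85 and 11.83 in water rats. Every DCLF value was over 1 log2 unit below both water values, and the log2 change was -1.48 ± 0.16 (SE, limma adjusted p = 0.107, 95% interval -1.86 to -1.11). A second Prlr probe set read 9.65, 9.13 and 9.52 in DCLF rats and 11.18 and 11.26 in water rats, a change of -1.78 ± 0.15 (adjusted p = 0.0657). The third read 8.24, 6.92 and 8.92 in DCLF rats and 9.33 and 9.31 in water rats (-1.29 ± 0.50, adjusted p = 0.369), with DCLF rat 2 lowest. The groups did not overlap in any of the 3 probe sets, although 20.8% of all genes also had every DCLF value below both water values. Corn oil rats had 11.79, 11.57 and 12.28 on the brightest probe set, close to the water rats, and the change against corn oil was -1.52. In bulk liver, fewer cells of a type and less RNA per cell cannot be told apart. Prlr passed the adjusted threshold when the variance prior followed intensity (adjusted p = 0.0431), against the 5 vehicle rats together (0.0463) and without DCLF rat 1 (0.0377).

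Cyp17a1, the steroid 17-alpha-hydroxylase, followed the same order. It read 10.17, 9.67 and 9.75 in DCLF rats, against 10.74 and 10.67 in water rats and 11.17, 10.93 and 12.00 in corn oil rats. All DCLF rats were below all 5 vehicle rats, with a log2 change of -0.84 ± 0.15 against water (adjusted p = 0.258) and -1.51 against corn oil. The APAP rats of the same in-life study read lower still, at 8.75, 8.40 and 9.50. Adh4, an alcohol dehydrogenase that also oxidises retinol, read 10.50, 10.94 and 10.43 in DCLF rats and 11.23 and 11.25 in water rats (-0.61 ± 0.15, adjusted p = 0.296), and was named after its values were seen. Against corn oil (11.24, 10.52 and 11.06) its change was -0.32 and the ranges overlapped.

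These 3 genes belong to a list of 9 measured genes with higher levels in female than in male rat liver. On the adjusted test 0 of the 9 changed. At an unadjusted p under 0.05, 3 were lower and 0 higher, where 8.56% of all genes were lower and 3.26% higher, and the list's median change was -0.16 (-0.090 without water rat 1), beside -0.033 over all genes. The remaining members did not share the size of these differences. Cyp2c12, the classic female-specific P450, read 12.87, 12.58 and 12.09 in DCLF rats and 13.43 and 12.07 in water rats, so the DCLF rats lay within the range of the water rats, and Cyp2c7, Cyp2a1, Sult2a1, Sult2a2 and Abcc3 differed by -0.16 to 0.12. Of 13 male-predominant genes, 2 were higher and 1 lower at an unadjusted p under 0.05, with a median of 0.14, and without DCLF rat 2 the count was 0 higher and 1 lower. The higher end was held by Dhrs7l1 (13.29, 13.48 and 13.28 in DCLF rats, 13.20 and 12.61 in water rats, 0.45 ± 0.17, adjusted p = 0.360), and the lower end by the uptake transporter Slco1a1 (12.02, 12.32 and 12.11 in DCLF rats, 12.55 and 12.49 in water rats, -0.37 ± 0.11, adjusted p = 0.306). Cyp2c11, the main male P450, differed by 0.10 ± 0.12.

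Sex-dependent liver genes are governed by the pattern of growth hormone secretion, which signals through its receptor Ghr, the kinase Jak2 and the transcription factor Stat5b. Stat5b read 9.28, 9.52 and 9.42 in DCLF rats and 9.96 and 10.04 in water rats, without overlap (-0.60 ± 0.10, adjusted p = 0.258). Corn oil rats read 9.73, 9.26 and 9.59, so both water rats stood above all DCLF and corn oil rats. Jak2 (-0.35 ± 0.13) and Ghr (-0.27 ± 0.10), named after their values were seen, were also lower at an unadjusted p under 0.05, so that 3 of the 12 measured genes of the growth hormone and IGF list were lower and 0 higher at that level, where 8.56% of all genes were lower. The median of the list was -0.22, with 11 members below 0, and after quantile normalisation it was -0.11 with 7 below 0. Without DCLF rat 2 the count was 7 lower (median -0.33), against 1 without DCLF rat 1 (median -0.14) and 2 without DCLF rat 3 (median -0.11). Over all probe sets in either direction, 3885 passed that level with all rats. The number was 4423 without DCLF rat 2, 2790 without DCLF rat 1 and 2980 without DCLF rat 3. Igf1, the growth hormone target secreted by hepatocytes, overlapped between the groups (14.24, 14.19 and 14.09 in DCLF rats, 14.32 and 14.03 in water rats, -0.0025 ± 0.11).

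For several of the feedback genes the DCLF rats differed among themselves. Cish, a suppressor of cytokine signalling that is switched on after a growth hormone pulse, read 9.80, 11.70 and 9.46 in DCLF rats, against 10.92 and 10.72 in water rats. DCLF rat 2 was above both water rats and the other DCLF rats were below them, and a second Cish probe set split the same way (8.71, 10.89 and 8.59 in DCLF rats, 10.17 and 10.07 in water rats). The related Socs2 had 10.74, 11.73 and 10.37 in DCLF rats and 11.19 and 10.68 in water rats, again with DCLF rat 2 highest. Gadd45g, a stress-inducible growth arrest gene, read 9.36, 11.20 and 9.29 in DCLF rats and 11.11 and 11.01 in water rats. Without DCLF rat 2 its log2 change was -1.74 (adjusted p = 0.0257), against -1.11 (adjusted p = 0.440) with all rats. DCLF rat 2 also had the highest values of the 5 rats for the immediate early genes Jun (11.98), Myc (10.13) and Atf3 (8.75). Of 22 measured immediate early genes, 1 was higher and 1 lower at an unadjusted p under 0.05, beside 3.26% and 8.56% of all genes. The list's median was -0.044, and how often DCLF rat 2 was highest in it was not counted.

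**Figure D2:**
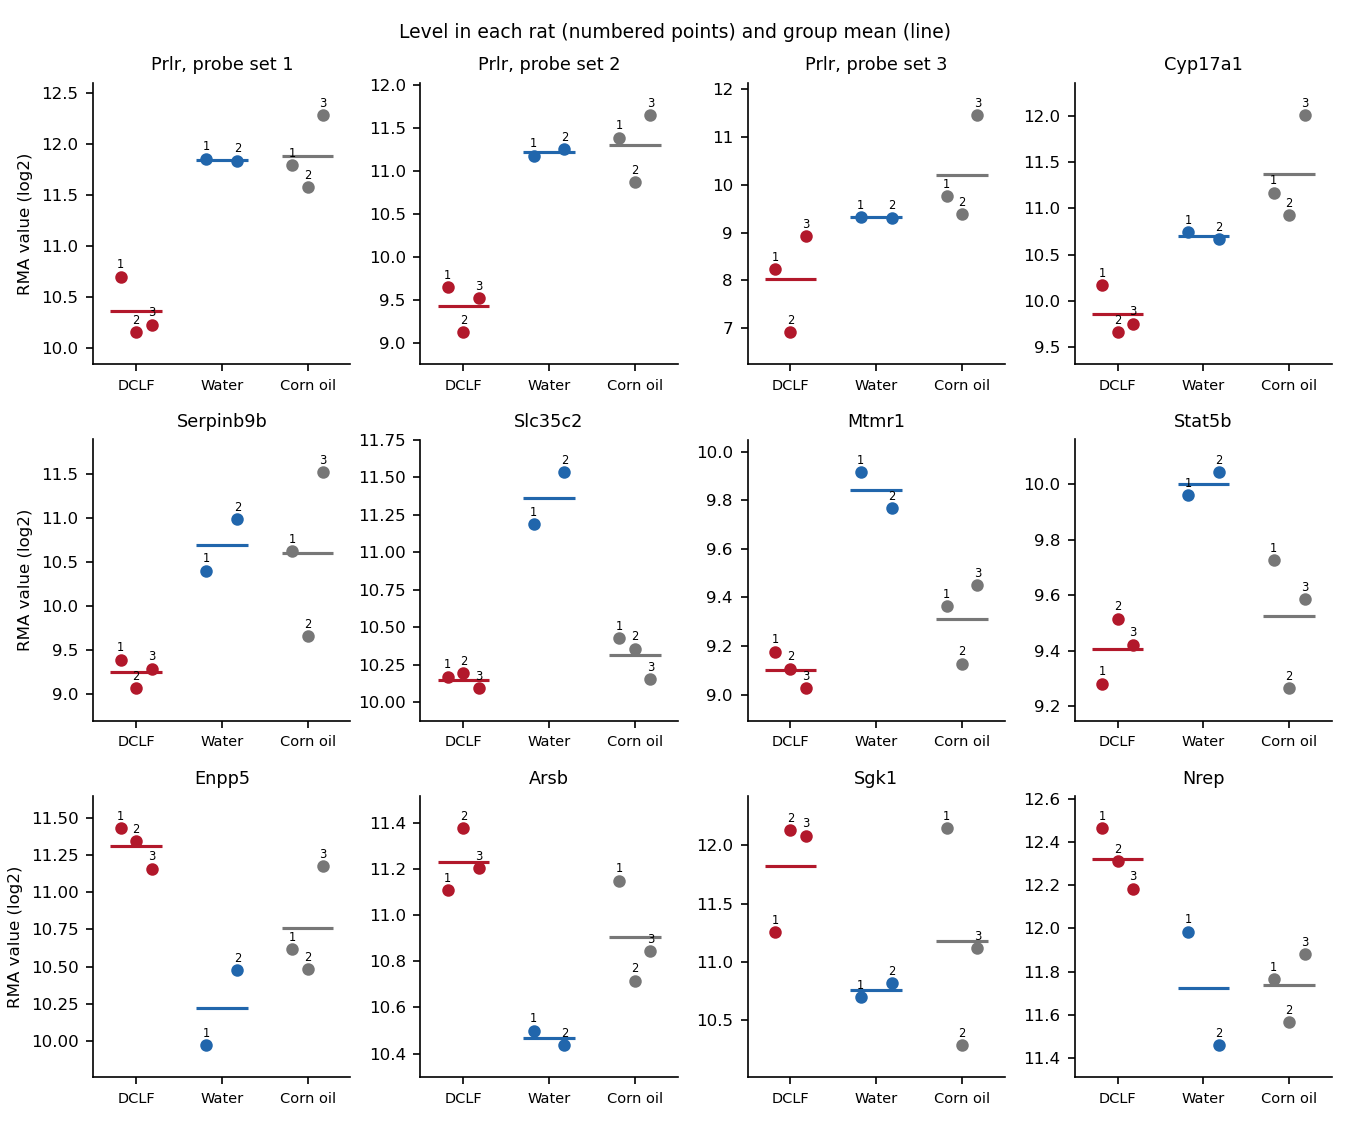
RMA values (log2, vertical) of each rat as numbered points and group means as lines for DCLF (n = 3), water (n = 2) and corn oil (n = 3), in 12 panels. The 3 Prlr probe sets, Cyp17a1 and Serpinb9b had all DCLF rats below all vehicle rats, while for Slc35c2, Mtmr1 and Stat5b the water rats lay above both other groups.

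Among the other genes of this set of 36, Serpinb9b, a member of the intracellular serine protease inhibitors of clade B, stood next to Prlr in size. It read 9.39, 9.07 and 9.29 in DCLF rats, 10.40 and 10.99 in water rats and 10.63, 9.66 and 11.52 in corn oil rats. No DCLF rat reached any vehicle rat, with a log2 change of -1.45 ± 0.18 against water (adjusted p = 0.143) and -1.35 against corn oil. Itga1, the collagen-binding integrin alpha 1, read 9.33, 10.39 and 9.57 in DCLF rats, against 11.07 and 10.60 in water rats and 10.62, 10.45 and 11.05 in corn oil rats (-1.07 ± 0.30, adjusted p = 0.302). The transcription factor Klf13 (-0.65 ± 0.12) and the phospholipase Plaat3 (-0.59 ± 0.15), both named after their values were seen, likewise had every DCLF rat below all 5 vehicle rats. This held for 8 of the 36 genes, which besides these 4 were Prlr, Cyp17a1, Bclaf3 and Tifa, while Nrep alone had every DCLF rat above them. Over all genes the shares were 3.78% below and 2.26% above. The 36 genes were chosen on the water values, so their larger share is a description and no test. APAP rats overlapped the DCLF rats for Itga1 (9.40 to 10.61), Klf13 (8.94 to 9.11), Plaat3 (10.05 to 10.37) and Tifa (8.85 to 9.64). They lay below all DCLF rats for Cyp17a1, and above them for Prlr, Serpinb9b and Bclaf3.

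For other genes of this set both water rats lay outside the range of the DCLF and corn oil rats. Slc35c2, a member of the nucleotide sugar transporter family, read 10.17, 10.19 and 10.09 in DCLF rats and 11.19 and 11.54 in water rats. The change was -1.21 ± 0.12 (adjusted p = 0.0830, and 0.0328 when the variance prior followed intensity), but corn oil rats read 10.43, 10.36 and 10.15 and the change against them was -0.16. In APAP rats it read 11.17, 11.19 and 10.15, so 2 of these 3 were at the level of water rat 1. Mtmr1, a phosphoinositide phosphatase, had 9.18, 9.11 and 9.03 in DCLF rats, 9.92 and 9.77 in water rats and 9.36, 9.13 and 9.45 in corn oil rats (-0.74 ± 0.09, adjusted p = 0.142). A further 2 of its 4 probe sets were lower by 0.92 and 0.66 on the log2 scale, and the fourth was higher by 0.098. The neutrophil chemokine Cxcl1 read 8.74, 9.30 and 8.97 in DCLF rats and 9.62 and 9.86 in water rats (-0.74 ± 0.16, adjusted p = 0.294), with corn oil rats at 8.71 to 8.96 and APAP rats at 9.07 to 9.69. In all, both water rats lay outside the range of the DCLF and corn oil rats for 17 of the 36 genes (47.2%) and for 12.2% of all genes. Because the 36 genes were chosen on these same water values, this share too is a description and no test. With corn oil as the vehicle the unadjusted set held 29 probe sets (7 higher, 22 lower) in place of 140.

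Further genes of the set had wide scatter or probe sets that disagreed. Abcb1a, the P-glycoprotein drug pump of the bile canaliculus, read 7.65, 8.68 and 8.10 in DCLF rats and 9.17 and 9.16 in water rats (-1.03 ± 0.26, adjusted p = 0.298). Its second probe set was lower by 0.82 on the log2 scale, while corn oil rats (8.27, 7.97 and 9.06) overlapped the DCLF rats on the first. Ahr, the dioxin receptor, was lower on the probe set with the higher mean (8.58, 8.99 and 9.13 in DCLF rats, 9.43 and 9.79 in water rats, -0.71 ± 0.18, adjusted p = 0.297) but not on the other (0.061 ± 0.077). Trim36, a ubiquitin ligase of the tripartite motif family, read 7.93, 7.43 and 7.12 in DCLF rats and 9.31 and 8.24 in water rats (-1.28 ± 0.34, adjusted p = 0.299), with water rat 1 far above water rat 2. A1cf, the RNA-binding cofactor of apolipoprotein B editing (-1.07 ± 0.24), Rhpn2 (-1.03 ± 0.26), Fam13a (-0.75 ± 0.14) and Sall1 (-0.72 ± 0.21) had adjusted p of 0.282 to 0.303.

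Of the 8 higher genes, Enpp5, a member of the ectonucleotide phosphodiesterase family, led with 11.43, 11.34 and 11.16 in DCLF rats, against 9.97 and 10.47 in water rats (1.08 ± 0.16, adjusted p = 0.227). Corn oil rat 3 reached 11.17, within the DCLF range. Sgk1, a kinase induced by glucocorticoids, read 11.25, 12.13 and 12.08 in DCLF rats and 10.70 and 10.82 in water rats (1.06 ± 0.25, adjusted p = 0.294), while corn oil rats spanned 10.29 to 12.14, which covers both groups. Arsb, the lysosomal arylsulfatase B, read 11.11, 11.38 and 11.20 in DCLF rats and 10.50 and 10.44 in water rats (0.76 ± 0.10, adjusted p = 0.161) and passed when all 23 arrays estimated the spread (adjusted p = 0.0469). Its second probe set differed by 0.19 ± 0.14. On the first, corn oil rats read 11.15, 10.72 and 10.84, overlapping the DCLF rats, and the change against them was 0.33. Nrep read 12.46, 12.31 and 12.18 in DCLF rats, 11.98 and 11.46 in water rats and 11.56 to 11.88 in corn oil rats (0.60 ± 0.16, adjusted p = 0.301). The nucleoside transporter Slc28a2 (0.70 ± 0.20), the mitochondrial ATP-magnesium carrier Slc25a25 (0.60 ± 0.17) and the BMP target Id1 (0.59 ± 0.13) were further higher genes of the set, and the remaining one has no gene name beyond a locus number. Against corn oil the changes were 0.29 for Slc28a2, 0.58 for Slc25a25 and 0.015 for Id1.

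For the drug targets themselves the groups overlapped. Ptgs1 read 10.02, 10.74 and 10.42 in DCLF rats and 10.10 and 10.19 in water rats, with overlap (0.24 ± 0.19, 95% interval -0.20 to 0.69). The other Ptgs1 probe set had a change below 0, and neither passed the looser unadjusted rule. Ptgs2, the inducible cyclooxygenase, was dim at 4.94, 5.02 and 5.00 in DCLF rats and 4.90 and 4.98 in water rats (0.047 ± 0.078, 95% interval -0.14 to 0.23). The level of such a dim probe set cannot be told from background in these files, since no detection call was used here. The synthases that follow, Ptges, Ptges2, Ptges3, Ptgds, Hpgds, Ptgis and Tbxas1, differed by -0.15 to 0.066.

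On the lipid supply side, both directions occurred among the phospholipases. Pla2g6, a calcium-independent phospholipase A2, read 9.66, 9.74 and 9.55 in DCLF rats and 10.01 and 10.03 in water rats (-0.37 ± 0.09, adjusted p = 0.294), but corn oil rats, at 9.70, 9.35 and 9.73, overlapped the DCLF rats. The secreted Pla2g2a read 9.69, 10.08 and 9.67 in DCLF rats, above the 9.43 and 9.50 of water rats (0.35 ± 0.14, adjusted p = 0.372). Ltc4s, which makes leukotriene C4, had the largest difference of the list. Its values were 11.67, 10.54 and 11.59 in DCLF rats and 10.45 and 10.30 in water rats (0.89 ± 0.32, adjusted p = 0.342), so DCLF rats 1 and 3 were high and DCLF rat 2 lay next to the water rats. Of the 25 measured genes of prostaglandin and leukotriene synthesis, 2 were higher and 4 lower at an unadjusted p under 0.05, beside 3.26% higher and 8.56% lower over all genes. The median change was 0.040, of either sign under the alternatives (-0.032 to 0.056), and -0.0195 without water rat 2. Of the 25, 24 had a 95% interval within 2-fold, Ltc4s being the exception, beside 98.9% of all genes. Among the 10 receptors, Ptger3 (-0.32 ± 0.11) and Ptgfr (-0.29 ± 0.09) were lower at an unadjusted p under 0.05 and 0 were higher. All 10 intervals lay within 1.5-fold, beside 91.8% of all genes. The receptor median was 0.041, with 0.129 without water rat 2 and -0.073 without water rat 1.

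Enzymes and carriers that handle the drug had differences on both sides of 0. Of 31 measured genes, 2 were higher and 2 lower at an unadjusted p under 0.05, beside 3.26% higher and 8.56% lower over all genes. The median was -0.0086 (-0.036 to 0.052 under the alternatives), and 24 had intervals within 1.5-fold, beside 91.8% of all genes. The 7 measured Cyp2c genes differed by -0.24 to 0.19, and the 4 Cyp3a genes by -0.35 to 0.38. Cyp2c6v1, an abundant 2C form, read 14.21, 14.04 and 14.18 in DCLF rats and 14.09 and 14.19 in water rats (-0.0031 ± 0.089, 95% interval -0.21 to 0.21). Probe sets of these families can share sequence with close relatives, so the values may mix members. Abcc2, the canalicular pump for the glucuronide, read 11.69, 11.98 and 12.00 in DCLF rats and 11.85 and 11.77 in water rats (0.080 ± 0.11, 95% interval -0.18 to 0.34).

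Among the conjugation genes Ugt2b35 (0.018), Ugt2b7 (0.046) and Ugt2b10 (0.083) had changes near 0, while Ugt2b1 read 11.77, 10.78 and 11.58 in DCLF rats and 10.41 and 11.10 in water rats (0.62 ± 0.31, adjusted p = 0.459), with overlap and with corn oil rats at 11.60 to 11.73. Ugdh, which supplies UDP-glucuronic acid, differed by -0.31 ± 0.14. On the uptake side Slco1b2 read 12.88, 12.98 and 12.77 in DCLF rats, below the 13.22 and 13.09 of water rats (-0.28 ± 0.09, adjusted p = 0.331). Of the 14 measured targets of the xenobiotic receptors CAR and PXR, 3 were higher and 0 lower at an unadjusted p under 0.05, beside 3.26% higher and 8.56% lower over all genes, with a median of 0.11. The median was 0.145 without water rat 2 and 0.132 without water rat 1. With the methods' t-test 1 was higher and 0 lower, where 399 of all genes were higher and 929 lower. With the spread of all 23 arrays 1 was higher and 0 lower, where 370 of all genes were higher and 908 lower. Against corn oil 1 was higher and 1 lower, where 1556 of all probe sets passed that level in place of 3885. Epoxide hydrolase Ephx1 read 13.53, 13.37 and 13.26 in DCLF rats and 13.09 and 13.03 in water rats (0.32 ± 0.10, adjusted p = 0.314), a difference of 1.25-fold. Alas1, the first enzyme of haem synthesis, differed by 0.38 ± 0.13.

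**Figure D3:**
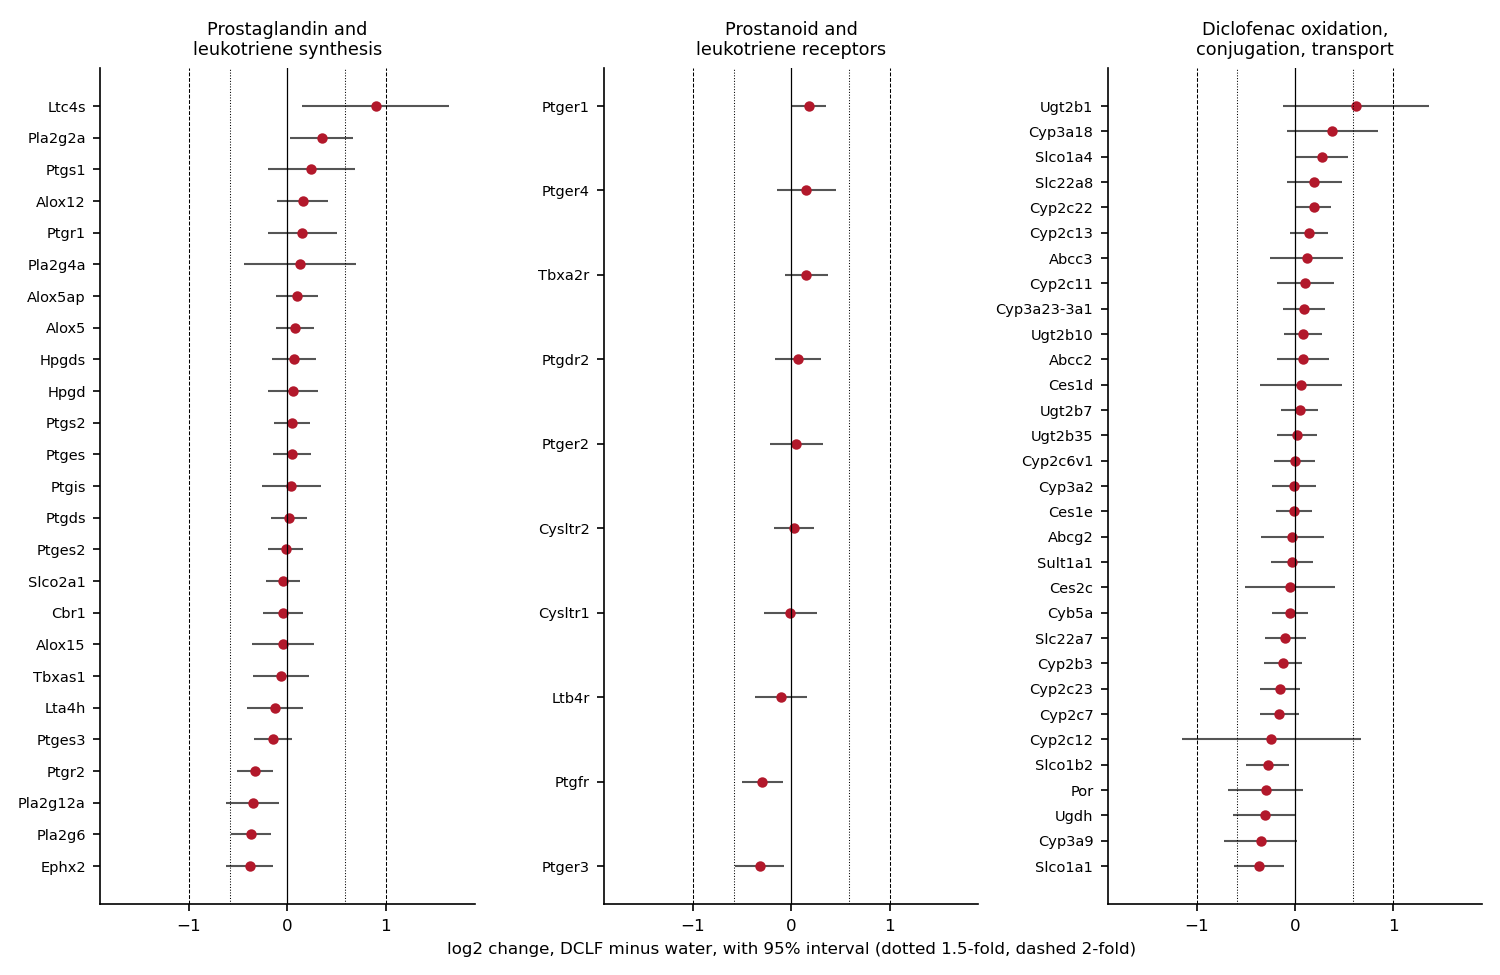
Log2 change (DCLF minus water, horizontal, points) with its 95% interval (lines) for 25 genes of prostaglandin and leukotriene synthesis, 10 receptors and 31 genes of diclofenac oxidation, conjugation and transport. Most intervals lie inside the dotted 1.5-fold lines, and those of Ltc4s, Ugt2b1 and Cyp2c12 cross a dashed 2-fold line.

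The measured genes of gluconeogenesis and glucose handling all had lower means in DCLF livers. Of the 15, 0 had a change above 0, beside 41.1% of all genes, the median was -0.22, and 6 were lower at an unadjusted p under 0.05 (8.56% of all genes) while none passed after adjustment. Irs2, the insulin receptor substrate, read 9.79, 10.42 and 9.71 in DCLF rats and 10.45 and 10.58 in water rats (-0.54 ± 0.20, adjusted p = 0.366). The other 5, named after their values were seen, were glycogen synthase Gys2 (-0.40 ± 0.11), the glucose transporter Slc2a2 (-0.35 ± 0.13), the glucagon receptor Gcgr (-0.35 ± 0.08), pyruvate carboxylase Pc (-0.29 ± 0.10) and the transcription factor Foxo1 (-0.29 ± 0.07). Gcgr read 11.51, 11.54 and 11.52 in DCLF rats and 11.80 and 11.95 in water rats, but corn oil rats read 11.44 to 11.68 and the change against them was -0.07. Pck1, the enzyme that commits carbon to glucose, had a change close to 0 (14.36, 14.41 and 14.24 in DCLF rats, 14.45 and 14.26 in water rats, -0.018 ± 0.096). Bright genes as a whole sat lower, with a median of -0.069 over the genes in the brighter part of the array, and after quantile normalisation 11 of the 15 were below 0 with a median of -0.16. Without single rats the median was -0.28 to -0.13, and it was -0.14 without water rat 2. Without DCLF rat 3 (median -0.13) 3 members were lower, where 2980 of all probe sets passed that level in place of 3885.

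Fat burning and respiration showed smaller differences. Of 30 genes of fatty acid oxidation, 2 had a change above 0, beside 41.1% of all genes, and 5 were lower at an unadjusted p under 0.05, beside 8.56% of all genes. The median was -0.12. After quantile normalisation 23 of the 30 were below 0 with 3 lower at that level (median -0.069). Against corn oil, where 1556 of all probe sets passed that level in place of 3885, 0 of the 30 genes were lower (median -0.045). Ppara, the receptor that controls them, read 9.03, 9.01 and 9.03 in DCLF rats and 9.21 and 9.40 in water rats (-0.28 ± 0.09, adjusted p = 0.313), and Etfdh, which passes their electrons to the respiratory chain, differed by -0.30 ± 0.09. Without water rat 2 the list's median was -0.064, with 23 of the 30 below 0. Of 34 respiratory chain and ATP synthase genes, 29 were below 0 with a median of -0.064, and after quantile normalisation 18 were below 0 with a median of -0.00069. Without DCLF rat 1 the median was -0.032. All 34 had intervals within 1.5-fold (91.8% of all genes), and the furthest were the complex III subunit Uqcrc2 (-0.32 ± 0.10) and the complex IV subunit Cox5a (-0.32 ± 0.07).

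Lists of stress and injury genes are set here beside the shares over all genes, 3.26% higher and 8.56% lower at an unadjusted p under 0.05. Over all probe sets in either direction, 3885 passed that level with all rats, 4423 without DCLF rat 2 and 2980 without DCLF rat 3. Of 25 NRF2 targets, which answer reactive metabolites, 2 were higher and 1 lower at that level, with a median of -0.054 (0.0059 after quantile normalisation), and the count lower was 3 without DCLF rat 2. Srxn1, which repairs oxidised peroxiredoxins, read 11.31, 11.32 and 11.16 in DCLF rats and 10.93 and 11.02 in water rats (0.29 ± 0.09, adjusted p = 0.314), and the corn oil rats overlapped the DCLF rats at 11.16 to 11.41. Of 30 genes of ER stress and the integrated stress response, 0 were higher and 2 lower (median -0.034). Without DCLF rat 2 this list had 7 lower (median -0.155), and without DCLF rat 3 1 higher and 0 lower (median 0.023). Without water rat 1 its median was -0.103. Of 20 p53 targets, 1 was higher and 3 lower (median -0.045), of 15 heat shock genes 0 and 3 (median -0.13), and of 40 cell cycle genes 1 and 2 (median 0.018). Of the p53 targets 6 were lower without DCLF rat 2. The heat shock median was -0.178 to -0.065 under the alternatives, and the p53 and cell cycle medians took either sign (-0.16 to 0.031 and -0.033 to 0.044). Among 26 acute phase genes 2 were higher and 3 lower, with A2m, the rat acute phase macroglobulin, at 9.74, 9.87 and 10.47 in DCLF rats and 9.26 and 9.56 in water rats (0.62 ± 0.22, adjusted p = 0.339).

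**Figure D4:**
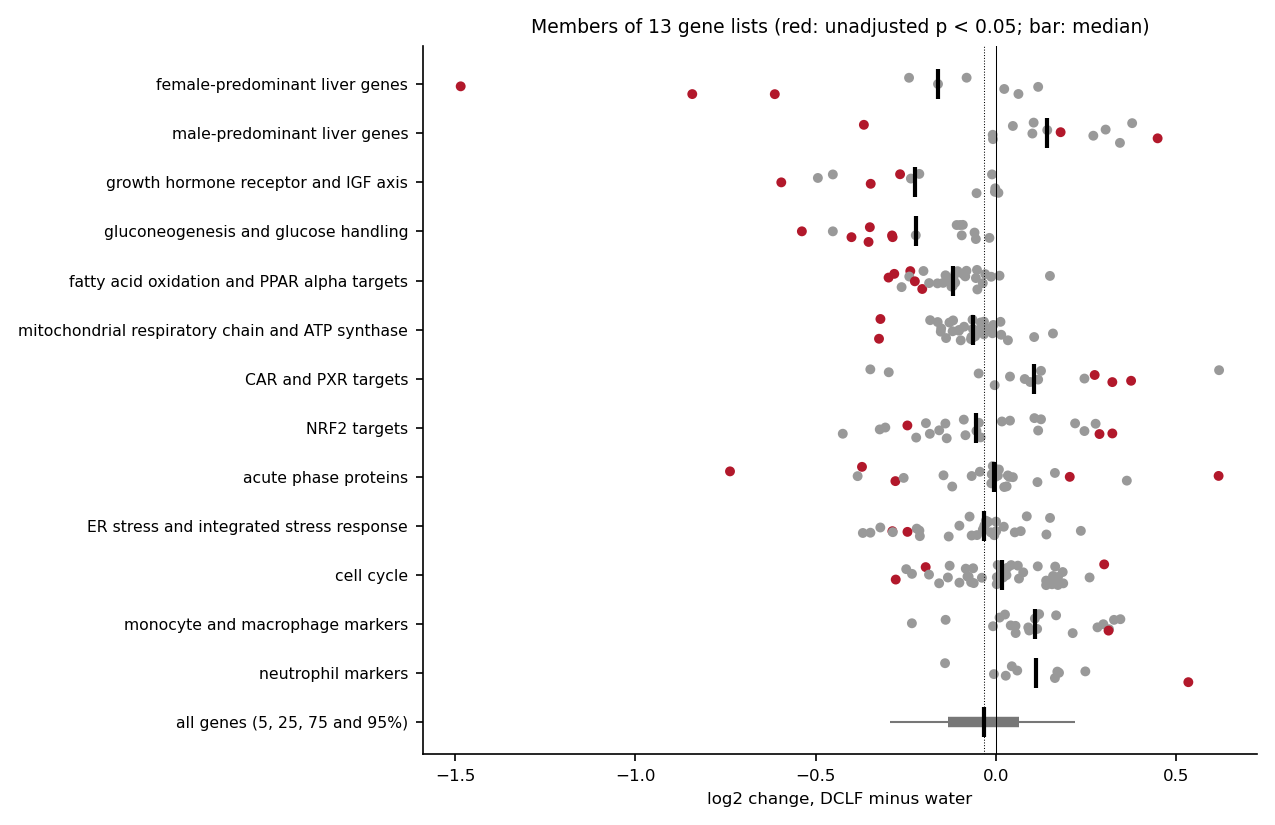
Log2 change (DCLF minus water, horizontal) of the members of 13 gene lists, 1 point per gene with list medians as bars, and the bottom row giving the interquartile range (thick) and the 5 to 95% range (thin) over all genes. Members with an unadjusted p under 0.05 are red. The gluconeogenesis points all lie below 0, and the medians run from -0.22 for the growth hormone and gluconeogenesis lists to 0.14 for male-predominant genes.

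Mean levels of the markers of other liver cells overlapped between DCLF and water rats for each list below except neutrophils. The mean level over 21 macrophage markers was 9.99 to 10.69 in DCLF rats and 10.14 to 10.36 in water rats, and the defining markers Cd68, Cd163 and Csf1r differed by 0.21, 0.025 and 0.31, each with DCLF rat 1 below the other DCLF rats. The median of the list was 0.11 and was -0.022 without DCLF rat 2 and 0.34 without DCLF rat 1. Mean levels were 7.61 to 7.69 in DCLF rats and 7.49 to 7.55 in water rats over 10 neutrophil markers, where S100a9 differed by 0.53 ± 0.14 and S100a8 by -0.0052. Corn oil rats averaged 7.52 to 7.63 over the same neutrophil markers, overlapping the DCLF rats. The list's median change was 0.11 against water and 0.018 against corn oil. These neutrophil probe sets were dim, and 0 of the 10 were left when probe sets dimmer than the median were removed. Over 20 lymphocyte markers mean levels were 8.72 to 8.94 in DCLF rats and 8.68 to 8.84 in water rats. Over 17 bile duct markers they were 8.85 to 8.96 in DCLF rats and 8.85 to 8.94 in water rats, and over 16 endothelial markers 9.68 to 10.14 in DCLF rats and 9.62 to 10.13 in water rats. The 11 erythroid markers averaged 8.64 to 8.80 in DCLF rats and 8.67 to 8.81 in water rats, and the 33 genes of stellate cells, fibroblasts and matrix 9.93 to 10.21 in DCLF rats and 9.99 to 10.12 in water rats. The part of these differences in the gene results was not tested.

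Several of the largest numerical differences came from single rats and were named for that reason. Ugt2b, a further UDP-glucuronosyltransferase gene of the annotation, read 13.82, 13.72 and 11.35 in DCLF rats, against 13.77 and 14.08 in water rats and 13.76 to 13.97 in corn oil rats. Its second probe set read 11.86, 11.84 and 7.49 in DCLF rats and 11.93 and 12.26 in water rats, so DCLF rat 3 alone was low on both while the other rats were level. The close relative Ugt2b15 showed no such gap (13.14, 12.92 and 12.82 in DCLF rats, 13.05 and 12.95 in water rats). A probe set of Abhd3, a lipase of the alpha/beta hydrolase family, read 5.11 to 5.23 in DCLF rats and 5.25 and 10.30 in water rats, and corn oil rat 3 joined water rat 2 at 10.62 while the others stayed at 5.25 and 5.32. The second Abhd3 probe set was level (8.28 to 8.37 in DCLF rats, 8.06 and 8.30 in water rats). A probe set of the MHC class II gene RT1-Bb was at 6.62 to 7.08 in DCLF rats and 6.98 and 10.53 in water rats, again with water rat 2 alone. Acsm2, a medium-chain acyl-CoA synthetase, had the largest positive change of any gene (1.31 ± 0.65, adjusted p = 0.453), with water rat 1 at 8.68 and water rat 2 at 11.30, among the DCLF values of 10.96, 11.55 and 11.41.

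**Figure D5:**
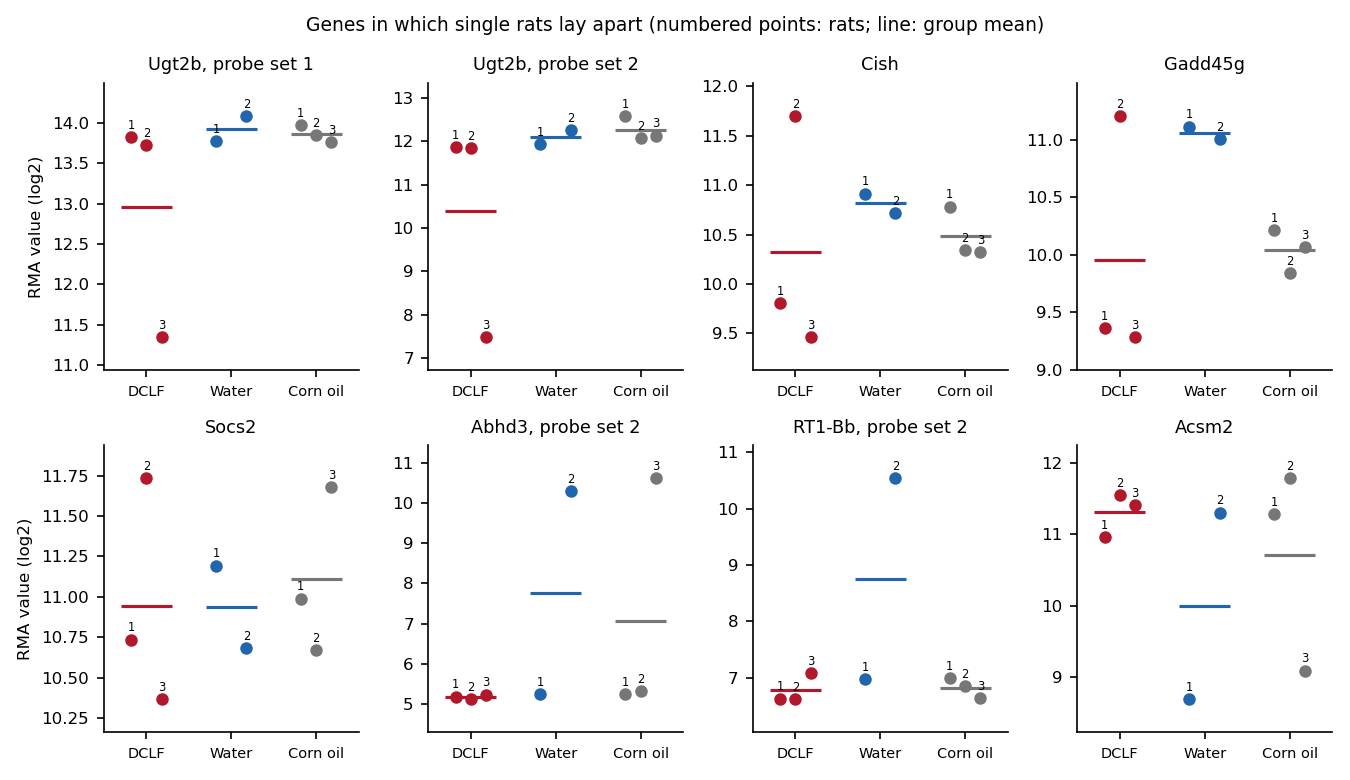
RMA values (log2, vertical) of each rat as numbered points and group means as lines for DCLF (n = 3), water (n = 2) and corn oil (n = 3), in 8 panels of 7 genes. DCLF rat 3 was low on both Ugt2b probe sets, DCLF rat 2 was high for Cish, Gadd45g and Socs2, and water rat 2 was high for Abhd3 and RT1-Bb.

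The DCLF effect was set against that of APAP, the other drug of the same in-life study, as the difference between each drug's change from its own vehicle. Limma found 22 probe sets (0.0709%) and 19 genes (0.134%) with a different effect, all lower for DCLF, and the methods' t-test found 0 after adjustment. Gsta3, a glutathione transferase, differed most: it read 8.64, 7.44 and 7.43 in DCLF rats and 8.37 and 8.15 in water rats, against 12.32, 12.01 and 12.30 in APAP rats and 8.06, 7.45 and 8.07 in their corn oil rats (difference -4.77 ± 0.43, adjusted p = 0.00133). Of the 25 NRF2 targets 7 differed in this way, beside 0.134% of all genes. Besides Gsta3 they were Abcc3, Abcc4, Akr7a3, Nqo1, Gclc and Ugdh. Abcc3, the pump that returns glucuronides to blood, read 8.63, 8.77 and 9.18 in DCLF rats and 8.77 and 8.72 in water rats, while APAP rats read 11.69, 11.66 and 11.60 (difference -2.75 ± 0.19, adjusted p = 0.000436).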

How the data were processed

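The deposited values were used as the authors made them: total RNA was labelled, hybridised to an Affymetrix rat array in a single colour and normalised by RMA in Array Studio, giving log2 values per probe set. Of 31099 probe sets, 57 Affymetrix controls were left out. Through the platform annotation 20826 probe sets carried 1 gene, 436 several and 9780 none here; 20758 of the first were found in RefSeq (GRCr8, names only), giving 14217 genes, each read from its brightest probe set (by the mean of 11 arrays of the in-life study).

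The limma 3.58.1 package of R 4.3.3 (lmFit, eBayes) was fitted to the 3 DCLF and 2 water arrays alone, two-sided, with Benjamini-Hochberg adjustment over all 31042 probe sets. Calls needed an adjusted p under 0.05 and a fold change over 1.5. The difference between the DCLF and APAP effects was a contrast over 11 arrays. The methods' t-test assumed equal variances. Adjusted p-values in the text are limma's and errors are its standard errors. Limma was also run on simulated data of this design, with independent normal noise at each probe set's own residual spread. Changes of 2-fold and 4-fold, 100 each, were planted together, and limma called 74 and 96 of them, with 6 false calls. Planting both sizes together eases the adjusted threshold for the smaller one, so the share of real 2-fold changes missed is not known. In the rats themselves 40 probe sets differed by more than 2-fold and 0 were called. P-values measure only the spread between these rats, and the number of arrays limits the precision.

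Genes were named by rule: the 15 largest changes each way among genes at an unadjusted p under 0.01 and over 1.5-fold, the 2 largest each way in each of 39 lists, all measured prostanoid and diclofenac disposition genes, the 3 smallest p-values, and the 5 largest differences from APAP. Other genes in the text (such as Adh4, Jak2, Ghr, Klf13, Ugt2b, Abhd3, Acsm2 and the defining cell markers) were chosen after their values were seen. The comparison, the lists and the genes were chosen with earlier results of these data known. Of 938 list entries 808 were measured.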

Additional observations from a re-analysis of the deposited data

Results flagged for a closer look

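The DCLF effect differed from the APAP effect in 19 genes by a test of the difference itself (limma, adjusted p under 0.05 and over 1.5-fold), and in all 19 the DCLF effect was the lower. In these genes the log2 change of DCLF from water alone ran from -0.42 (Gsta3) to 0.25 (Akr7a3). The log2 differences were -4.77 for Gsta3, -2.89 for Phgdh, -2.75 for Abcc3, -2.34 for Akr7a3, -2.33 for Psat1, -1.95 for Abcc4, -1.74 for Nqo1, -1.62 for Slc17a3, -1.53 for Cryl1 and -1.42 for Ugdh. They were -1.20 for Mgst2, -1.13 for Car2, -1.09 for Gclc, -1.06 for Pla2g6, -1.06 for Atp5if1, -0.95 for Slc35e3, -0.82 for Entpd5, -0.77 for Uqcc5 and -0.69 for Cpox.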

How the results depend on the processing

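No paired analysis was possible because the DCLF and water livers came from different rats, whose numbers are no more than names. The count of 0 probe sets called in DCLF against water became 11 with an intensity trend and robust prior, 5 with the spread of all 23 arrays, 3 without probe sets dimmer than the median, 2 against the 5 vehicle rats together and 0 to 3 without 1 rat. The 140 probe sets of the unadjusted set became 32 with the methods' t-test, 86 without dim probe sets, 29 against corn oil, 32 against the 5 vehicle rats, 29 at 2-fold and 137 to 263 without 1 rat, the most without water rat 1 and the next, 254, without DCLF rat 2. The 22 probe sets that differed from the APAP effect became 0 with the methods' t-test, 58 with the spread of all 23 arrays, 35 without dim probe sets and 8 to 27 without 1 rat (8 without water rat 2, 9 without APAP rat 1, 12 without corn oil rat 2 and 13 without DCLF rat 3). A lone water rat was assumed to vary like the DCLF rats. The share of probe sets with an interval within 2-fold was 95% to 99.4% under the alternatives.

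Among the 228 genes followed, quantile normalisation turned the sign of 10 and corn oil as the vehicle that of 52. List medians were recomputed after seeing the data. Of 584 recomputed medians of the 39 lists 75 took the other sign, in 27 lists, while 12 lists kept their sign throughout. Among those described above, the sign turned under at least 1 alternative for prostaglandin synthesis, prostanoid receptors, diclofenac disposition, NRF2, ER stress, p53, cell cycle, acute phase, iron, clock, macrophage and several marker lists. It did not turn for the female-predominant, male-predominant, growth hormone, gluconeogenesis, fatty acid oxidation, respiratory chain, CAR and PXR, heat shock and neutrophil lists.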

Other observations

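The clock genes and the hepcidin pathway were not described above. Of 19 clock genes, 3 were lower in DCLF livers at an unadjusted p under 0.05 and 0 higher, beside 8.56% lower over all genes, with a median log2 change of -0.082. Without DCLF rat 2 the count was 6 lower, without DCLF rat 3 it was 1, and against corn oil 2 were higher and 0 lower (median 0.0085). In these fits 4423, 2980 and 1556 of all probe sets passed that level in either direction, beside 3885 with all DCLF and water rats. Nr1d1, the heme-binding repressor of the clock, read 8.56, 9.05 and 8.69 in DCLF rats, against 9.07 and 9.46 in water rats, while corn oil rats read 8.75 to 8.78. Of 21 genes of iron and haem handling, 4 were higher and 2 lower, beside 3.26% higher and 8.56% lower over all genes. Without DCLF rat 3 the count was 1 higher, and against corn oil 0 higher. The set held Id1 (0.59 ± 0.13) and the BMP feedback inhibitor Smad7 (0.31 ± 0.12) among the higher genes, and the iron regulatory proteins Aco1 (-0.33 ± 0.08) and Ireb2 (-0.38 ± 0.13) as the lower genes. None of these passed the adjusted limma test. Angptl8, a liver-secreted inhibitor of lipoprotein lipase, read 10.45, 10.53 and 10.58 in DCLF rats, above the 10.05 and 9.87 of water rats (0.56 ± 0.09, adjusted p = 0.258).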
